A study of Mus musculus with 8 samples.

Results

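Aminoacyl-tRNA synthetases, the enzymes that charge each tRNA with its amino acid, were followed in the tibialis anterior muscle of mice lacking the transcription factor Prep1. The members were all non-control probes of the array whose gene name has 1 letter followed by ars or ars2, together with the names Eprs, Farsa, Farsb, Aimp1 and Aimp2. This gave 39 of the 27398 gene names on the array, read by 77 probes. Of these probes 67 gave a signal well above background on 4 or more arrays of the 8, and all 39 genes had at least 1 of them. Cytosolic enzymes or their subunits are encoded by 20 of the genes, and mitochondrial enzymes (names ending in 2) by 17. Aimp1 and Aimp2 encode scaffold proteins with no charging activity. Kars and Gars are counted as cytosolic here, although each gene serves both compartments.

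Muscle RNA came from male C57BL/6 mice aged 8 weeks, with 1 single-colour Agilent array per mouse. The control group was 4 Prep1f/+ mice, with a floxed Prep1 allele beside a wild-type one, and in the 4 Prep1deltaSM mice Prep1 was ablated in skeletal muscle. The Cre line behind the ablation is not given in the sources used here, and the muscle was taken whole, so cells other than fibres contributed RNA from both groups. In such bulk RNA, fewer cells of a type and less RNA per cell cannot be told apart.

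There is in general 1 synthetase per amino acid in the cytosol and a second, separately encoded enzyme in the mitochondrial matrix. Class I and class II enzymes have unrelated catalytic folds. In the cytosol of animal cells several synthetases sit together in the multisynthetase complex, which is held together by Aimp1, Aimp2 and Eef1e1 (Aimp3). When amino acids run short, the kinase Gcn2 leads to translation of Atf4, a transcription factor known to induce many cytosolic synthetase genes.

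The array reads each transcript through 60-base probes. The following 7 are shown because the results turn on them: the members with the lowest p-values, and the 5′ probes of Eprs, Tars and Mars, which are set against other probes of the same genes below. Positions are in mm9, as the files give them. The Farsb, Rars, Gars, Eprs and Mars probes span an intron in the genome, as their ranges exceed 70 bases, while the Aimp2 and Tars probes each lie in 1 unbroken stretch. Each is printed 5′ to 3′ as in the files, with no part marked.
Aimp2, chr5:144667531-144667590, minus strand: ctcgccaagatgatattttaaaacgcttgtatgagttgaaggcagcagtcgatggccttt
Farsb, chr1:78459851-78463543, minus strand: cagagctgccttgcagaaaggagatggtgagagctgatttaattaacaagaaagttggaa
Rars, chr11:35633429-35634605, minus strand: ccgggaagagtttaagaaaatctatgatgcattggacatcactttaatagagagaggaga
Gars, chr6:55019476-55023387, plus strand: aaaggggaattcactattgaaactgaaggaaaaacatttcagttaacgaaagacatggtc
Eprs 5′ probe, chr1:187193501-187194772, plus strand: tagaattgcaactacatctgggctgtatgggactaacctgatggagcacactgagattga
Tars 5′ probe, chr15:11317844-11317903, minus strand: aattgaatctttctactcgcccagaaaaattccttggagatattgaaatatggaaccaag
Mars 5′ probe, chr10:126736485-126737031, minus strand: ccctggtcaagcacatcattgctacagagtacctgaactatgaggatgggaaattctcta

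Levels are log2 signal minus the log2 of the 75th percentile of the same array, so 0 is the 75th percentile, and differences are Prep1deltaSM minus Prep1f/+. A gene is read by its brightest probe unless another is named. Pknox1, the gene of Prep1, checked the labels: its level was -0.09, -0.31, -0.21 and -0.51 in the Prep1f/+ muscles and -1.84, -2.08, -2.28 and -1.96 in the Prep1deltaSM muscles. The groups did not overlap (limma, adjusted p = 0.0072), and of 16016 genes in the fit no other one had an adjusted p under 0.05, which makes 1 gene or 0.00624%. The markers of skeletal muscle were present (8 of 8 tested), with a summed signal of 8993 to 10400 times the 75th percentile in Prep1f/+ and 9510 to 10260 in Prep1deltaSM. Each of 4 slides carried an array of both groups, and with 4 arrays a group precision is limited throughout.

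None of the 39 members passed an adjusted p of 0.05 (limma), and the larger differences were on the higher side. At an unadjusted p under 0.05, 7 members were higher in Prep1deltaSM and 1 was lower, or 17.9% and 2.56% of them. Over all genes the shares were 5.54% higher and 10.3% lower. The 7 were Aimp2, Farsb, Rars, Eprs, Gars, Fars2 and Rars2, and the 1 was Sars. In those 7 the 4 Prep1deltaSM values all lay above the 4 Prep1f/+ values, a pattern of 3.72% of all genes. The opposite pattern, 6.74% of all genes, was shown by Cars2 alone. Over all probes, calls (unadjusted p under 0.05) changed direction with signal level. At levels of -2 to -1, 427 of 3214 probes were higher and 243 lower, and at -1 to 0, 393 and 242 of 3037. Above 3, 90 of 3200 were higher and 351 lower. Of member probes there, 3 of 5, 6 of 12 and 1 of 10 were higher and 0 lower. Rars lay in the first range, and Farsb, Gars and Rars2 in the second. Sars and Eprs lay in the third, Fars2 and Aimp2 in none. By the brightest probe the signs of the members were mixed: 18 differences were above 0 and 21 below, and their median was -0.03, where that of all genes was -0.07. That balance turned with other settings: 30 of 39 were above 0 with the probes of a gene averaged (median 0.10), 29 with the probe nearest the 5′ end (0.23), 23 with quantile normalization (0.06) and 17 of 28 with the authors' values (0.07). With quantile normalization the balance of all calls moved from 887 higher and 1654 lower to 1124 and 1302, and of the members 9 were higher and 0 lower. The authors' values were used only where they lay within 0.1 log2 of quantile-normalized values, so they are no separate check on that setting. After this filter they covered 28 members, of which 7 were higher and 0 lower, beside 854 and 922 of the 11594 genes covered.

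**Figure D1:**
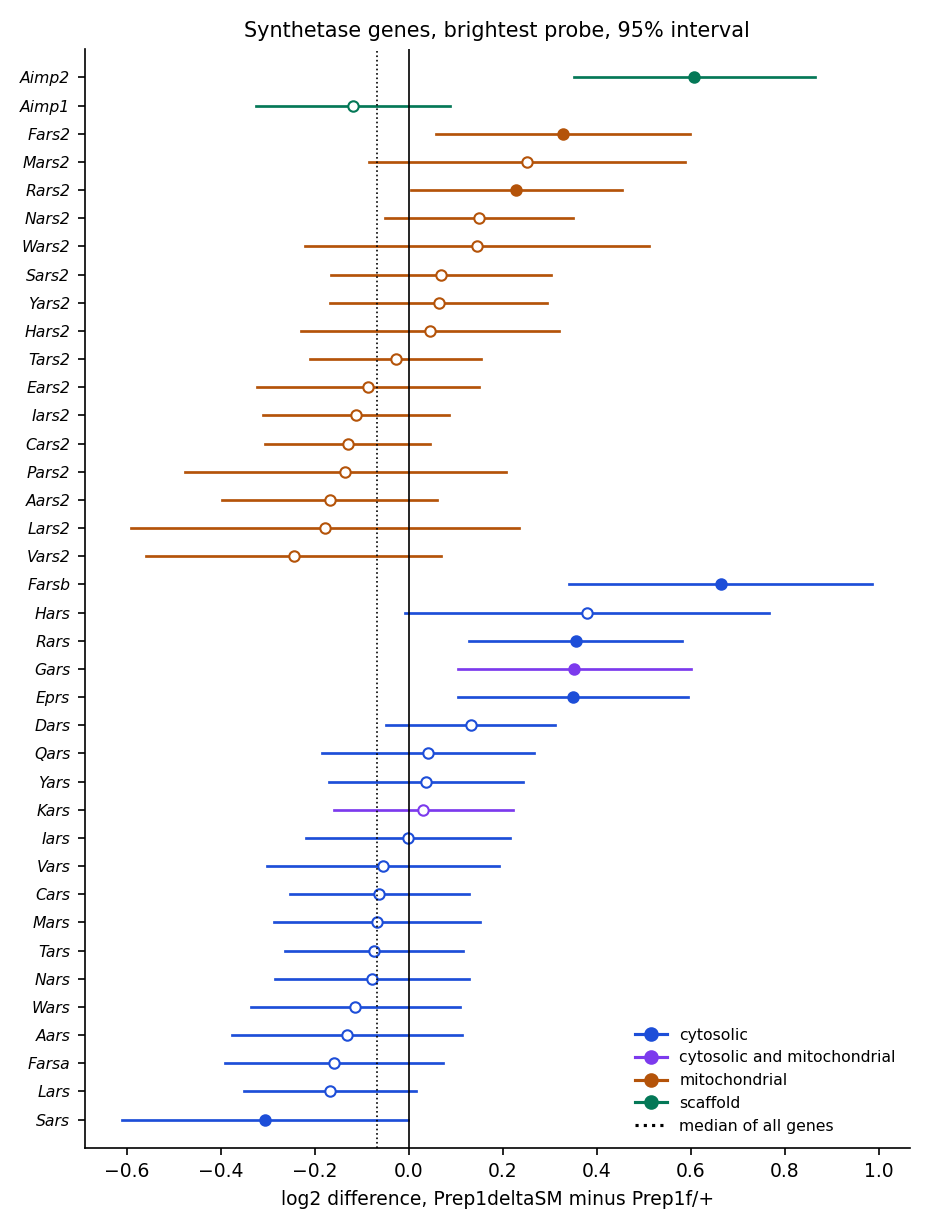
Log2 difference between Prep1deltaSM and Prep1f/+ muscle (n = 4 each) for 38 of the 39 synthetase genes, read by the brightest probe, with 95% confidence intervals of the limma fit and colours for the compartment. Filled points have an unadjusted p under 0.05, and the dotted line is the median of all genes at -0.07. The 7 filled points on the right run from 0.23 (Rars2) to 0.66 (Farsb), and the 1 on the left is Sars at -0.31.

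The cytosolic enzyme that charges tRNA with phenylalanine is a tetramer of Farsa, its catalytic subunit, and Farsb. In the fit by brightest probe Farsb had the largest difference of all members, while with the authors' values, and with quantile normalization whether or not normexp came first, that of Aimp2 was larger. Its level was -1.0, -0.83, -0.62 and -1.10 in Prep1f/+ and -0.24, 0.00, -0.16 and -0.50 in Prep1deltaSM. The groups stood apart, and the difference was 0.66 ± 0.14 (SE; limma unadjusted p = 0.00134, adjusted p = 0.135). It was 0.41 with normexp background correction before quantile normalization, a move of over 1.5 times. Farsa gave 2.16, 2.27, 1.97 and 1.98 in Prep1f/+ and 1.79, 1.93, 2.03 and 2.0 in Prep1deltaSM. These values overlap, with a difference of -0.16 ± 0.10 (SE). Fars2, the single-chain mitochondrial enzyme for the same amino acid, was at 0.66, 0.64, 0.43 and 0.49 in Prep1f/+ and at 0.72, 1.16, 0.90 and 0.75 in Prep1deltaSM. Every Prep1deltaSM value was above every Prep1f/+ value, the closest being 0.66 and 0.72, and the difference was 0.33 ± 0.12 (SE; limma unadjusted p = 0.0226, adjusted p = 0.246).

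The ratio of the 2 subunits within an array does not depend on how the array was scaled. The log2 ratio of Farsb to Farsa was -2.98 ± 0.26 (SD, n = 4) in Prep1f/+ and -2.16 ± 0.25 in Prep1deltaSM, a change of 0.82 with no overlap (exact two-sided permutation p = 0.0286, the smallest that 70 assignments can give). The ratio of Farsa to Fars2 changed by -0.49, also with no overlap. The size and the overlap depended on the Farsa probe, of which 4 were kept, with differences of -0.03, 0.09, 0.02 and -0.16 from the 5′ to the 3′ end. With the other 3 the Farsb to Farsa ratio changed by 0.58 to 0.69 and the groups overlapped, with exact permutation p-values of 0.0571 to 0.143. With them the Farsa to Fars2 ratio changed by -0.36, -0.24 and -0.31, with no overlap for the last of these. That of Farsb to Fars2 changed by 0.34, with overlapping groups (exact permutation p = 0.114). The Farsb probe spans an intron and the brightest Farsa probe does not, a property that moved with the differences over many genes, as given below. Of the 4 Farsa probes only the second from the 5′ end spans an intron. With it the Farsb to Farsa ratio changed by 0.58, with overlapping groups (exact permutation p = 0.0571).

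**Figure D2:**
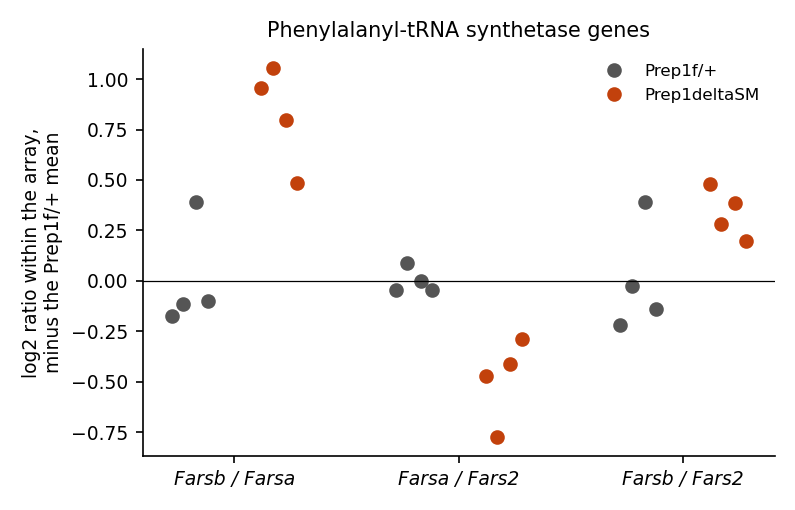
Log2 ratio of 2 phenylalanyl-tRNA synthetase genes, each by its brightest probe, within each array, minus the Prep1f/+ mean of that ratio; each point is 1 muscle (4 Prep1f/+ in grey, 4 Prep1deltaSM in red). The Farsb to Farsa ratio is higher in every Prep1deltaSM muscle and the Farsa to Fars2 ratio lower, while the Farsb to Fars2 ratio overlaps between groups.

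Aimp2, Eprs and Rars, members of the multisynthetase complex, were among those with an unadjusted p under 0.05. Aimp2, a scaffold on which the complex is built, had the lowest p of all members. It gave 2.33, 2.51, 2.39 and 2.05 in Prep1f/+ and 2.86, 3.05, 2.95 and 2.85 in Prep1deltaSM. The highest Prep1f/+ value, 2.51, lay well under the lowest Prep1deltaSM value, 2.85, and the difference was 0.61 ± 0.11 (SE; limma unadjusted p = 0.000544, adjusted p = 0.121), or 1.52-fold. With normexp background correction and quantile normalization Aimp2 passed (limma adjusted p = 0.0474; 0.0474 to 0.372 over all settings).

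Eprs, which joins the glutamyl and prolyl enzymes in 1 chain, was at 2.90, 3.04, 3.13 and 2.71 in Prep1f/+ and 3.24, 3.39, 3.32 and 3.23 in Prep1deltaSM. The groups did not overlap, with a difference of 0.35 ± 0.11 (SE; limma unadjusted p = 0.0105, adjusted p = 0.209). Eprs was read by 4 probes over its length, with differences of 0.47, 0.43, 0.30 and 0.35 from the 5′ to the 3′ end. The last 2 of these overlap in sequence across the same intron and are not separate readings, and all but the second probe span an intron. In each of the 4 the groups stood apart, so the higher signal of Eprs did not hang on 1 probe.

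Rars, the arginyl enzyme, lay at -1.27, -1.24, -1.34 and -1.39 in Prep1f/+ and -0.93, -0.74, -1.08 and -1.07 in Prep1deltaSM. All Prep1deltaSM values were higher, with a difference of 0.36 ± 0.10 (SE; limma unadjusted p = 0.00666, adjusted p = 0.188), which was 0.19 with normexp and quantile normalization. The other members of the complex did not reach an unadjusted p under 0.05: Dars differed by 0.13, Eef1e1 by 0.10, Qars by 0.04, Kars by 0.03, Iars by 0.00, Mars by -0.07, Aimp1 by -0.12 and Lars by -0.17. Of the 11 genes of the complex, 7 were above 0 and 4 below, with a median of 0.04. The 12 cytosolic synthetase genes outside it had a median of -0.07, with 4 above 0, 2 higher and 1 lower at an unadjusted p under 0.05. The difference between these subsets was not tested.

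Lars, the leucyl enzyme that also acts as a leucine sensor for mTORC1, had all 3 of its probes below 0, as Vars2 had both of its own (-0.13 and -0.25). The Lars probes differed by -0.28, -0.25 and -0.17 from the 5′ to the 3′ end. The middle one had an unadjusted limma p of 0.0133 with groups apart, and the groups overlapped on the other 2.

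Gars, the glycyl enzyme, which makes its cytosolic and mitochondrial forms from 1 gene, was at -1.04, -1.21, -1.10 and -0.90 in Prep1f/+ and -0.69, -0.51, -0.89 and -0.75 in Prep1deltaSM. The highest Prep1f/+ and the lowest Prep1deltaSM values nearly met, and the difference was 0.35 ± 0.11 (SE; limma unadjusted p = 0.011, adjusted p = 0.213). On slide 4, where those 2 arrays lay together, the difference was 0.01. It was 0.19 with normexp and quantile normalization.

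**Figure D3:**
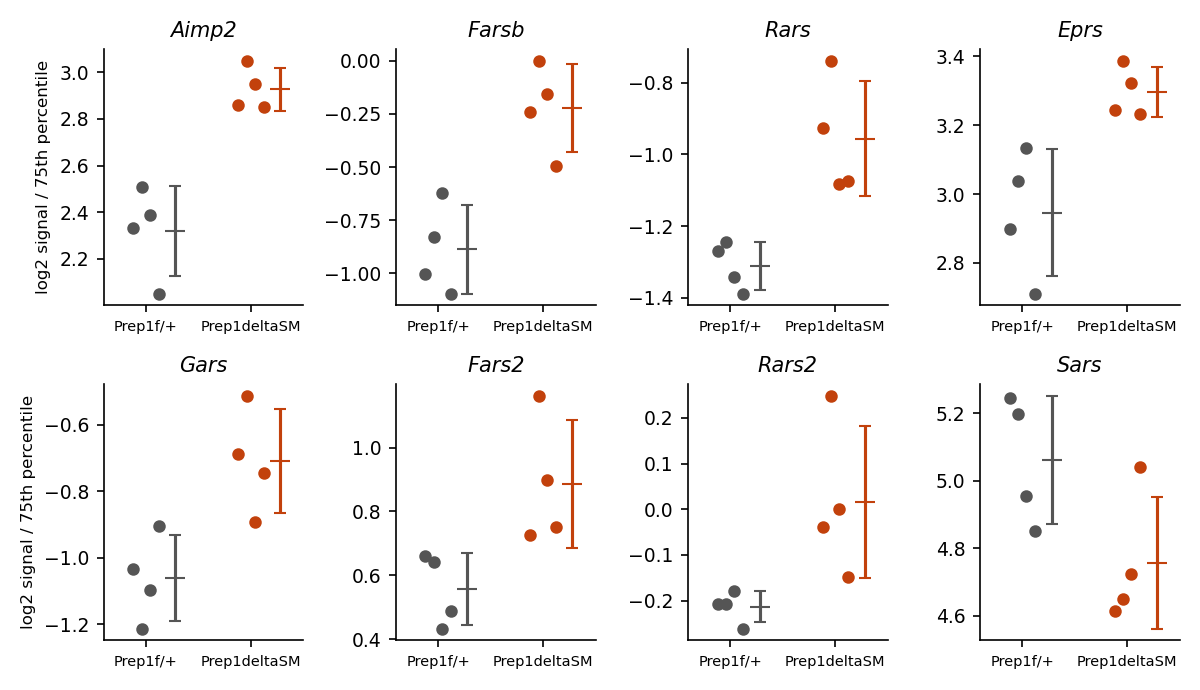
Level of the 8 synthetase genes with an unadjusted p under 0.05, as log2 signal over the 75th percentile of the array, 1 point per muscle, with the mean and SD of each group (n = 4); the vertical axes differ between panels and do not start at 0. The groups are apart in the first 7 panels, and overlap in that of Sars, where 1 Prep1deltaSM muscle at 5.04 lies above 2 of the Prep1f/+ muscles.

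Among the mitochondrial enzymes, Rars2 was the other with an unadjusted p under 0.05 besides Fars2. Rars2 was at -0.21, -0.21, -0.18 and -0.26 in Prep1f/+ and -0.04, 0.25, 0.00 and -0.15 in Prep1deltaSM. The Prep1f/+ muscles lay close together and the Prep1deltaSM muscles all above them, with a difference of 0.23 ± 0.10 (SE; limma unadjusted p = 0.0466, adjusted p = 0.307). Prep1deltaSM replicate 2 was the highest for both genes, and without it the differences were 0.15 for Rars2 and 0.24 for Fars2, with neither at an unadjusted p under 0.05. The same held for Fars2 without Prep1f/+ replicate 3 or 4, and of the 8 single omissions Rars2 stayed within it only without Prep1deltaSM replicate 4. Neither was within it when slides were fitted as blocks. Both arginyl genes were higher, and the log2 ratio of Rars to Rars2 changed by 0.13 with overlapping groups (exact two-sided permutation p = 0.0857).

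Cars2, the mitochondrial cysteinyl enzyme, was at 0.93, 0.91, 0.93 and 0.94 in Prep1f/+ and 0.67, 0.87, 0.85 and 0.80 in Prep1deltaSM. All Prep1deltaSM values were lower, but the difference of -0.13 ± 0.08 (SE; limma unadjusted p = 0.127) was small, and a second, more 5′ probe differed by 0.21. Cars, its cytosolic partner, differed by -0.06. These other mitochondrial members overlapped between groups, at 0.25 for Mars2, 0.15 for Nars2 and Wars2, 0.07 for Sars2, 0.06 for Yars2, 0.04 for Hars2, -0.03 for Tars2, -0.09 for Ears2, -0.11 for Iars2, -0.14 for Pars2, -0.17 for Aars2, -0.18 for Lars2 and -0.25 for Vars2. Lars2 stands on a probe whose accession list in the files also names Rn28s1, a 28S ribosomal RNA gene, the only such case among the 67 probes. Its level of 11.36 in Prep1f/+ and 11.18 in Prep1deltaSM can therefore not be assigned to Lars2 alone.

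Sars, the cytosolic seryl enzyme, was the 1 member lower at an unadjusted p under 0.05. It was at 5.25, 5.20, 4.95 and 4.85 in Prep1f/+ and 4.61, 4.65, 4.72 and 5.04 in Prep1deltaSM. One Prep1deltaSM muscle lay within the Prep1f/+ range, and the difference was -0.31 ± 0.13 (SE; limma unadjusted p = 0.0491, adjusted p = 0.313). That call was absent without Prep1f/+ replicate 1, 2 or 3 or Prep1deltaSM replicate 1, 2 or 3. Without Prep1f/+ replicate 3, Aars2 and Lars2 were lower instead, 2 members in all. The log2 ratio of Sars to Sars2 was 4.04 ± 0.08 (SD, n = 4) in Prep1f/+ and 3.66 ± 0.17 in Prep1deltaSM, with no overlap (exact two-sided permutation p = 0.0286).

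The remaining cytosolic members overlapped between groups. Hars, the histidyl enzyme, differed by 0.38 ± 0.17 (SE; limma unadjusted p = 0.0535), with 0.80, 1.16, 0.98 and 0.88 in Prep1f/+ and 1.18, 1.18, 1.14 and 1.83 in Prep1deltaSM. One muscle at 1.83 carried much of that difference. Yars differed by 0.04, Vars by -0.05, Tars by -0.07, Nars by -0.08, Wars by -0.11 and Aars by -0.13.

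By the brightest probe, cytosolic and mitochondrial genes had close medians. The 20 cytosolic genes had a median difference of -0.03, with 9 above 0, and the 17 mitochondrial genes one of -0.03, with 8 above 0. Without Lars2 the mitochondrial median was 0.01. Closeness and sign depended on the probe: the cytosolic and mitochondrial medians were 0.14 and 0.07 with the probes of a gene averaged, and 0.34 and 0.07 with the probe nearest the 5′ end. By catalytic class, the 18 class I genes had 2 higher and 0 lower at an unadjusted p under 0.05 and a median of -0.06, and the 18 class II genes had 3 and 1 with a median of 0.00. Eprs, which holds both folds, and the scaffold genes are in neither class. Over the 18 pairs of a cytosolic and a mitochondrial gene for the same amino acid, the within-array ratio was higher with no overlap in 1, Eprs to Ears2 (0.44), and lower in 2, Sars to Sars2 (-0.37) and Farsa to Fars2 (-0.49). These permutation tests share the smallest p of 0.0286 and were not adjusted. The share of such ratios among other gene pairs of the array was not computed, so whether these counts are high or low is not known. Ears2 itself was at 0.28, 0.39, 0.15 and 0.56 in Prep1f/+ and 0.21, 0.34, 0.28 and 0.20 in Prep1deltaSM, so the groups overlapped.

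Probes of the same synthetase gene often disagreed. With each probe as its own row, 17 of the 67 were higher and 1, the middle Lars probe, was lower at an unadjusted p under 0.05, where all probes gave 9.66% and 8.09%. The 17 belong to 14 genes, of which 7 are new: Cars, Iars, Mars, Qars, Tars, Tars2 and Wars, each through a probe that is not its brightest. Tars, the threonyl enzyme, shows the contrast. Its 5′ probe, printed above, was at -1.69, -1.70, -1.40 and -1.77 in Prep1f/+ and -1.07, -0.89, -0.86 and -1.23 in Prep1deltaSM, with a difference of 0.63 ± 0.12 (SE; limma unadjusted p = 0.000738, adjusted p = 0.0971). Its 3′ probe was at 3.27, 3.36, 3.42 and 3.20 and at 3.20, 3.34, 3.22 and 3.20, with a difference of -0.07. The groups stood apart on the 5′ probe and overlapped on the 3′ probe of the same transcript.

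Order along the transcript was examined after these values were seen. For 15 members all RefSeq probes, at least 2, list 1 and the same transcript, and the probe nearest the 5′ end had the higher difference in 14, with Lars the exception. Dars was left out because its RefSeq probes list 2 transcripts; of the 2 probes on one of them, the 5′ probe was the brighter and differed by 0.13, the 3′ probe by 0.10. Over the 15 the median difference was 0.27 for the 5′ probes and -0.07 for the 3′ probes. The methionyl gene Mars differed by 0.47 at the 5′ probe and -0.07 at the 3′ probe, the isoleucyl gene Iars by 0.43 and 0.00, Cars by 0.38 and -0.05, and the tryptophanyl gene Wars by 0.31 and -0.11. The same direction was seen over the array: of 4346 genes with such probes, 68.0% had the higher difference at the 5′ probe, with medians of 0.07 and -0.05. Of the 7 members called higher by their brightest probe, 6 have 1 kept probe, so this comparison could be made for Eprs only, where both ends were higher (0.47 and 0.35).

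**Figure D4:**
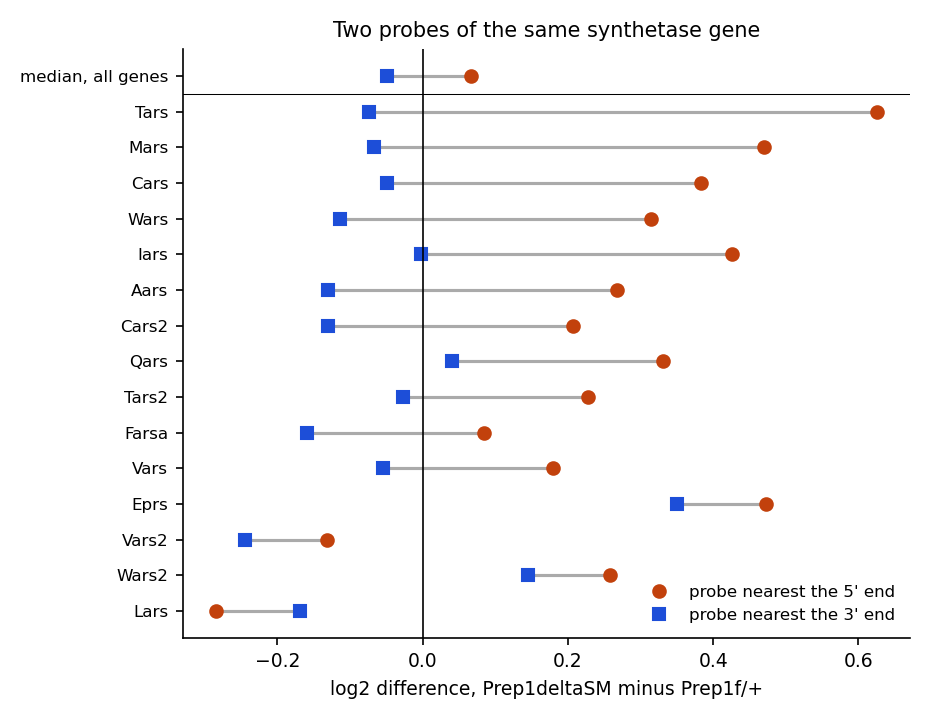
Log2 difference between Prep1deltaSM and Prep1f/+ (n = 4 each) at the probe nearest the 5′ end (circles) and nearest the 3′ end (squares) of 15 synthetase genes, with the medians of all 4346 genes on top. The circle lies right of the square in 14 of the 15 genes, Lars being the exception, and for Tars the values are 0.63 and -0.07.

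Position went along with brightness. In all 15 members the 5′ probe was the dimmer one, as in 70.5% of all genes. Among all genes whose 5′ probe was dimmer, 77.1% had the higher difference there, and among the 1280 whose 5′ probe was brighter, 46.3% had. None of the 15 was of the second kind, so position and brightness cannot be told apart in them. Probes that span an intron also stood out. Of 24 such member probes 12 were higher and 1 lower, against 5 and 0 of the other 43, and over all probes the shares higher were 16.8% and 8.69%. Of the 7 members called higher by their brightest probe, 5 were read by an intron-spanning probe, all but Aimp2 and Fars2. The part of these probe properties in the differences was not tested.

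Per array, the median log2 ratio of the 5′ to the 3′ probe over the 15 members, each centred on its mean, was 0.00, -0.23, -0.20 and -0.14 in Prep1f/+ and 0.26, 0.17, 0.13 and 0.07 in Prep1deltaSM. The groups did not overlap. Over all 4346 genes it was -0.04, -0.06, -0.15 and 0.02 in Prep1f/+ and 0.11, 0.05, 0.04 and 0.02 in Prep1deltaSM, so that 1 muscle of each group lay at 0.02 and the ranges overlapped. The read-out of a synthetase gene therefore moved with the probe that was taken. With the probe nearest the 3′ end, 7 members were higher and 0 lower, and all genes gave 910 higher and 1552 lower. They were the same 7 genes as with the brightest probe, but both settings read these 7 by the same probes. Of them 6 have 1 kept probe, and the brightest Eprs probe is the one nearest its 3′ end. With the probe nearest the 5′ end, 13 members were higher and 0 lower, 6 of them shared, and all genes gave 1473 higher and 1220 lower.

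**Figure D5:**
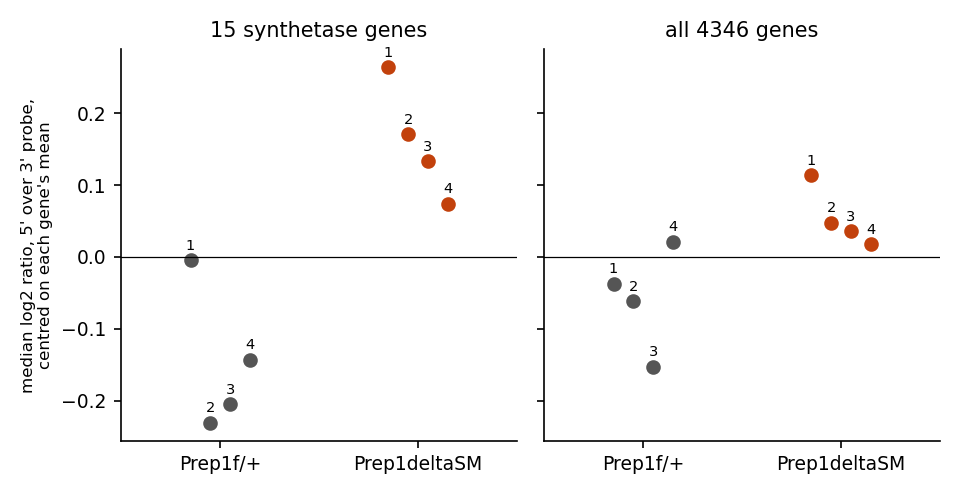
Median log2 ratio of the 5′ to the 3′ probe of a gene in each muscle, centred on the mean of each gene, for 15 synthetase genes (left) and all 4346 genes with such probes (right); the numbers beside the points are replicate numbers, which do not pair mice. On the left the Prep1f/+ muscles run from -0.23 to 0.00 and the Prep1deltaSM muscles from 0.07 to 0.26, while on the right the ranges meet at 0.02.

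Promoters were read from RefSeq in GRCm38.p6, as 300 bases from 250 before to 50 after the start, and 29 members had one. The amino acid response element bound by Atf4, searched as TGATGNAA on both strands, was in the promoters of 5 of 13 cytosolic genes (38.5%), Aars, Gars, Iars, Tars and Yars, and in 0 of 14 mitochondrial and 0 of 2 scaffold genes. Counted by promoter rather than by gene, it was in 5 of the 31 promoters of members (16.1%) and in 3.97% of all 32851 promoters. Member promoters with a match before the start are printed here to show where it lies. The 250 bases before the start run 5′ to 3′ on the strand of the gene, with the match, on the opposite strand, in capitals.
Aars, chr8:111033592-111033841, plus strand: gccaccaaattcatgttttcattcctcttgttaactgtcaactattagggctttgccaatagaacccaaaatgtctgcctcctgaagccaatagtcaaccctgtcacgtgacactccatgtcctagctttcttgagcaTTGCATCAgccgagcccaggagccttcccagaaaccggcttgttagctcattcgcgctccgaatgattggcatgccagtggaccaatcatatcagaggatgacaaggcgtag
Gars, chr6:55037751-55038000, plus strand: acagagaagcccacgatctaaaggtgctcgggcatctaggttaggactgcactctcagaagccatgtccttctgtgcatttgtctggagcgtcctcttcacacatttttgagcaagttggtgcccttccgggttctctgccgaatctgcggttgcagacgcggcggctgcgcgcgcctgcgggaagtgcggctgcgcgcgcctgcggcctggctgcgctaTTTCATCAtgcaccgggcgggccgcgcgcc
Tars, chr15:11399659-11399908, minus strand: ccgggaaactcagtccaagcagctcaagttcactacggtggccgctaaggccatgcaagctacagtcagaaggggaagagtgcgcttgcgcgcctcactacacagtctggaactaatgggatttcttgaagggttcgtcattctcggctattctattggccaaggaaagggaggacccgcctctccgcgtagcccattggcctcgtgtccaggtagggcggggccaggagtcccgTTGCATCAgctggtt

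The 5 genes with the element did not differ alike by their brightest probes: Gars by 0.35, Yars by 0.04, Iars by 0.00, Tars by -0.07 and Aars by -0.13. Of the sequences tied to Prep1 itself, TGATTGAC, a stretch of the Pbx-Prep site, was in 0 of the 29 members and in 0.77% of all promoters. TGACAG, the short site of Prep and Meis proteins, was in 7 of the 31 promoters of members (22.6%) and in 19.2% of all promoters. A match is a run of letters and not a shown binding site.

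The shares called in related gene lists can be read against the 5.54% higher and 10.3% lower of all genes. Of 22 tested genes of the Atf4 and amino acid response, 1 was higher and 1 lower at an unadjusted p under 0.05, with a median of -0.08: Atf4 itself at 0.28, and Mthfd2, an enzyme of mitochondrial folate metabolism, at -0.35. Asns, the asparagine synthetase gene that Atf4 is known to induce, differed by 0.02. Of 13 partners and relatives of the synthetases outside the naming pattern, 1 was higher, Qrsl1 (0.37), a subunit of the mitochondrial amidotransferase that makes glutaminyl-tRNA, and 1 lower, the peptidyl-tRNA hydrolase gene Ptrh2 (-0.19). Of 39 genes of tRNA processing and modification, 3 were higher, 1110008L16Rik (0.45), Clp1 (0.39) and Mto1 (0.32), and 1 lower, Pop7 (-0.24), with a median of -0.06. Clp1 acts in tRNA splicing, Mto1 modifies mitochondrial tRNA and Pop7 is a subunit of RNase P. None of these genes passed an adjusted p of 0.05 (limma).

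On chromosome 17, which carries Pknox1, lie 3 members, at 3.41 Mb (Vars), 4.05 Mb (Vars2) and 13.91 Mb (Aars2) from its probe in mm9, with the differences given above. Each of the 7 members called higher was higher on all 4 slides, which had to follow from their groups standing apart and adds nothing to it. With slide as a block their adjusted p was 0.207 to 0.352 (limma). Sars, whose groups overlapped, was lower on all 4 slides. Markers of other cells are given with the caution that none passed an adjusted p of 0.05 (limma), and that 10043 of all 16016 genes were below 0. The fibroblast markers were below 0 in 7 of 8, with sums of 399.8 to 681.3 in Prep1f/+ and 304.3 to 703.4 in Prep1deltaSM, the tendon markers in 7 of 7 (41.58 to 67.12 and 34.74 to 50.83), and the tested leukocyte markers in 7 of 7 (16.03 to 34.92 and 11.06 to 19.5). The tested adipocyte markers were below 0 in 5 of 5 (133 to 165.1 and 100.8 to 162.3). Satellite cell markers were below 0 in 3 of 3, with sums of 7.93 to 8.40 and 4.78 to 6.30 that did not overlap. Most of that sum is Cdh15 (-0.64, groups apart), while Pax7 (-0.11) and Vcam1 (-0.17) overlapped between groups. The erythroid markers were above 0 in 3 of 3 (93.78 to 354.6 and 151 to 675.8). The endothelial markers were below 0 in 3 of 5 (25.57 to 34.49 and 23.53 to 28.64), and the Schwann cell markers were above 0 in 4 of 4 (1.47 to 3.52 and 1.82 to 2.25). At an unadjusted p under 0.05 (limma), 3 of 8 fibroblast markers were lower, Fbn1 (-0.69), Dcn (-0.58) and Lum (-0.42). Of leukocyte markers 2 of 7 were lower, Csf1r (-0.76) and Emr1 (-0.54), and of tendon markers 1 of 7, Chad (-0.98). Over all genes 10.3% were lower. The groups overlapped for each of these markers. Cdh15 was also lower at that p, as was the endothelial marker Vwf (-0.30), while Tek (0.39) was higher. Of the listed markers, Itgam, Lep and Myf5 were not well above background on enough arrays to be tested. The part of these cells in the synthetase differences was not tested.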

How the data were processed

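RNA of 8 tibialis anterior muscles was hybridised to single-colour Agilent mouse arrays. Background was subtracted from the deposited spot intensity by Feature Extraction, without normalization between arrays. The file headers give 10.5.1.1 as the version of the grid placement step. The submitters' processing notes name version 9.1, and it is not settled which applies to the background step. A second table deposited by the authors holds processed intensities for 32812 rows, of which 26233 lay within 0.1 log2 of quantile-normalized scanner values and were used as an alternative. Per array, 23787 to 27123 of 43379 spots were well above background, and none was saturated.

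The log2 of each array's 75th percentile was subtracted from its log2 intensities. Flagged spots (0 to 11 per array) were set missing. Of 41174 probes, the 24488 well above background on 4 or more arrays were kept, and each gene was read by its brightest probe (mean over all arrays). The group difference was fitted in limma 3.58.1 (R 4.3.3; lmFit, eBayes), with Benjamini-Hochberg adjustment over 16016 genes; the script was tested on simulated data. The labels do not say whether mice shared litters, and they do not pair mice. The members and lists were chosen with earlier results of these data known, so lists have counts and medians and no test. Members with an unadjusted p under 0.05 or groups apart, and their partners, are given by array, and up to 3 genes per direction of other lists are named. Alternatives were other background correction, scaling, filter and probe rules, a slide block, a trended robust fit and each array left out; probes by position were added after the data were seen. Protein sequences were not used here. The value of 1 member, counted throughout, is not reported here. All 39 members matched RefSeq names.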

Additional observations from a re-analysis of the deposited data

Results flagged for a closer look

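Dixon's ratio set 1 muscle apart in 3 of the 86 groups of 4 values examined, fewer than the 4.3 that chance gives. For Hars the level in Prep1deltaSM replicate 4, 1.83, was the highest (ratio 0.942), and its group was otherwise between 1.14 and 1.18. For Nars Prep1deltaSM replicate 2, at 2.71, was the highest (ratio 0.903), above 2.42 to 2.44 in the others. For Aars2 Prep1f/+ replicate 3, at 2.41, was the lowest (ratio 0.9), below 2.66 to 2.68.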

How the results depend on the processing

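Leaving out 1 muscle at a time gave 5 to 7 members of 39 higher and 0 to 2 lower. Over all genes these fits gave 4.00% to 5.79% higher and 7.35% to 11.5% lower. The higher count was 17 of 67 when each probe was a row of its own, beside 9.66% of all probes. It was 13 of 39 with the probe nearest the 5′ end, beside 9.37% of all genes. The lower count was 0 with quantile normalization, median centring, no filter on dim probes, the authors' values and the probe nearest the 3′ or 5′ end, and 2 with probes averaged per gene and with the trended robust fit. Over all genes the share lower in those settings was 5.94% to 11.5%. The count of members past an adjusted p of 0.05 (limma) was 0 except with normexp and quantile normalization. There it was 1, Aimp2, beside 26 of all 16016 genes. The cytosolic median was 0.0333 with normexp and quantile normalization, 0.0412 with quantile normalization alone, 0.1408 with probes averaged per gene, 0.0851 over single probes, 0.0865 with the authors' values, and 0.3418 with the 5′ probe. The mitochondrial median was 0.0557 with quantile normalization, 0.0633 over single probes, and 0.0685 both with probes averaged per gene and with the 5′ probe. Cars2 reversed to 0.0387 with its probes averaged and to 0.21 with the 5′ probe. Aimp2, Farsb, Rars, Eprs, Gars, Fars2, Rars2 and Sars kept their sign in every setting that gave a value. The cause of the changes was not tested. Replicate numbers follow accession order and pair no mice. Fitting slides as blocks pairs the arrays of each slide: Fars2 and Rars2 were then no longer at an unadjusted p under 0.05, while the other 5 higher members and Sars were. Calls by signal level are counted in the results above. Dim probes lie closer to background, and what that does to their differences was not tested.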
